A study of Mus musculus with 16 samples.

Results

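The TNF superfamily genes that deliver or receive costimulation in T cells were examined in repetitively activated TCF1+CD8+ T cells exposed to prostaglandin E2 (PGE2) and to stimulation with anti-CD3/CD28 beads. The set was chosen by gene name as 10 of the 54532 genes in the count table. It holds 5 ligand genes (Tnfsf9, Tnfsf8, Tnfsf14, Tnfsf11 and Cd40lg) and 5 receptor genes (Tnfrsf9, Tnfrsf4, Tnfrsf18, Cd27 and Tnfrsf1b). All 10 passed the filter on low counts in every comparison.

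Naive CD8+ T cells from spleens of C57BL/6J mice had been activated over and over with beads for 4 days in culture in low-dose IL-2, so every group, the untreated cells included, had already met anti-CD3/CD28. The cells were then kept for 1 h with or without 100 ng/ml PGE2, and for a further 4 h in 85 U/ml IL-2 either alone (unstimulated) or with anti-CD3/CD28 beads at 1 bead per cell (stimulated). RNA was sequenced from 4 replicates in each of the 4 groups: unstimulated, unstimulated with PGE2, stimulated, and stimulated with PGE2. The labels do not give the age of the mice, for which the methods state only a range over all experiments. Nor do the labels say whether the replicates were separate mice or cultures, so p-values measure the spread between these samples only.

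Ligands of the TNF superfamily are trimeric proteins, most of them held at the cell surface, and their receptors pass the signal on through TRAF adaptor proteins to NF-kB. On T cells, the receptors 4-1BB, OX40, GITR, CD27 and TNFR2 support survival and expansion after antigen has been seen, and most of them appear or increase when the T cell receptor is engaged. PGE2 acts on T cells through the receptors EP2 and EP4, which raise cyclic AMP.

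Total counts per sample were 22678254 to 42950763, and mitochondrial genes took 1.43% to 1.77% of the counts. The cells carried the CD8+ T cell markers, with group means of 735 to 1137 CPM (counts scaled to the library total) for Cd8a. Tcf7, which encodes TCF1, was at 1164 CPM in unstimulated and 305 CPM in stimulated cells. The NK cell list had a summed level of at most 0.113 CPM in any sample, and its markers Ncr1 and Klra8 were at 0 in all 16. Cd4 had 30 to 68 counts in the 4 samples numbered 3 and 0 to 13 in the other 12, so the main counts are also given without these 4 samples. Their part in the results was not tested.

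On GRCm38, the set lies on 5 chromosomes, and 5 of its members are on chromosome 4. Tnfrsf4 (chr4:156013843-156016612, plus strand), which encodes OX40, and Tnfrsf18 (chr4:156026164-156028895, plus strand), which encodes GITR, are 9.55 kb apart with no protein-coding gene between them. The ligand genes Tnfsf9 (chr17:57105325-57107757, plus strand) and Tnfsf14 (chr17:57189492-57194177, minus strand) are 81.7 kb apart, and Cd70, the gene of the CD27 ligand, is the only protein-coding gene between them. Tnfrsf9 (chr4:150914562-150946102, plus strand) encodes 4-1BB, Tnfrsf1b (chr4:145213463-145246870, minus strand) TNFR2, Cd27 (chr6:125232622-125237010, minus strand) the CD70 receptor, Tnfsf8 (chr4:63831308-63861347, minus strand) the CD30 ligand, Tnfsf11 (chr14:78277445-78308043, minus strand) RANKL and Cd40lg (chrX:57212143-57224042, plus strand) the CD40 ligand.

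Promoters of 3 members that rose with beads are shown, Tnfsf14 and Tnfrsf9 because they held an AP-1 match and Tnfsf11 as a strongly raised gene without one. RefSeq windows on GRCm38.p6 matched 8 of the 10 members, with 2 start sites for Tnfrsf9 and none for Tnfsf9 and Cd40lg. In the 250 bases before each start, both strands were searched for the cyclic AMP response element TGACGTCA, its part TGACG (contained in the former), the AP-1 site TGANTCA, the NFAT core GGAAA and the NF-kB consensus. In the window of Tnfsf14 (chr17:57194182-57194431, minus strand) the capitals mark the AP-1 match, 160 to 154 bases before the start, and the window of Tnfsf11 (chr14:78308044-78308293, minus strand) has neither an AP-1 nor an NF-kB match. In the 2 short stretches from the second start of Tnfrsf9 (chr4:150927948-150927974 and chr4:150927976-150927998, plus strand) the capitals mark the NF-kB and the AP-1 match, which lie 43 to 33 and 15 to 9 bases before the start.
Tnfsf14: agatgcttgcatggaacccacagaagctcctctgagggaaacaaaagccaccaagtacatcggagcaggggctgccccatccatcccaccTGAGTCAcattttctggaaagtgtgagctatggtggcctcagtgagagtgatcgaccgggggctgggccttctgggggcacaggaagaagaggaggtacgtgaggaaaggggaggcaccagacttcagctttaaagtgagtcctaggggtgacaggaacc
Tnfsf11: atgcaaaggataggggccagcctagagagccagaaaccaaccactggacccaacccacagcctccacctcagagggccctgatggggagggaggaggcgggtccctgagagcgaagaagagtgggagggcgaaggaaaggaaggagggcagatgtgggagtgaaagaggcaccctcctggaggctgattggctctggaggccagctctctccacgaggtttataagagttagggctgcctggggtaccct
Tnfrsf9 NF-kB: gagcagctGGGGATTTCCCaggaggcc
Tnfrsf9 AP-1: tgctcagtTGAGTCAcaggtcct

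Tnfrsf4, with a log2 fold change of 2.84 beside 2.78 for Tnfrsf9, had neither an AP-1 nor an NF-kB match, and its window, which overlaps exons of another gene, is not printed. The AP-1 site was present in 2 of the 9 member windows, those of Tnfsf14 and the second start of Tnfrsf9, and in 6.75% of all 32851 promoter windows. The NF-kB consensus was found in 1 of the 9, at the second start of Tnfrsf9, and in 7.25% of all windows. The first window of Tnfrsf9 held neither, and 81 of the 250 bases of the second lie in annotated Tnfrsf9 exons. The NFAT core stood in 8 of the 9 member windows and in 55.6% of all windows. Neither TGACGTCA nor TGACG was found in a member window, against 1.55% and 17.8% of all windows, which says only that these letters are not in these 250 bases.

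The levels of the members per length, in FPKM (fragments scaled to gene length and library total), placed the receptors above the ligands with few exceptions. In unstimulated cells, Cd27 had the highest mean at 102 ± 4.00 FPKM (SD, n = 4 for this and the following group values), followed by Tnfrsf9 at 86.2 ± 41.6 and Tnfrsf18 at 80.3 ± 21.3 FPKM. The samples of Cd27, Tnfrsf9, Tnfrsf18, Tnfrsf4, Tnfsf8 and Tnfrsf1b overlapped each with the next in this order. Below them came Tnfsf14, Tnfsf9 and Tnfsf11 at 2.67 to 3.85 FPKM, which also overlapped. Cd40lg was lowest in every group, at 0.278 to 2.22 FPKM.

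In stimulated cells, Tnfrsf9 had 599 ± 34.2 FPKM without and 735 ± 56.6 FPKM with PGE2, above every sample of the next gene, Tnfrsf4. By mean FPKM, Tnfrsf9 ranked 82nd and 58th of the 54532 genes in these groups, against 527th in unstimulated cells. Tnfsf14 moved from rank 7978 in unstimulated to rank 760 in stimulated cells, where its 75.3 ± 29.5 FPKM overlapped those of Tnfsf8 at 66.8 ± 14.2 FPKM. With PGE2, Tnfsf14 had 32.3 ± 13.6 FPKM and overlapped Tnfrsf1b above it and Tnfsf11 below it.

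**Figure D1:**
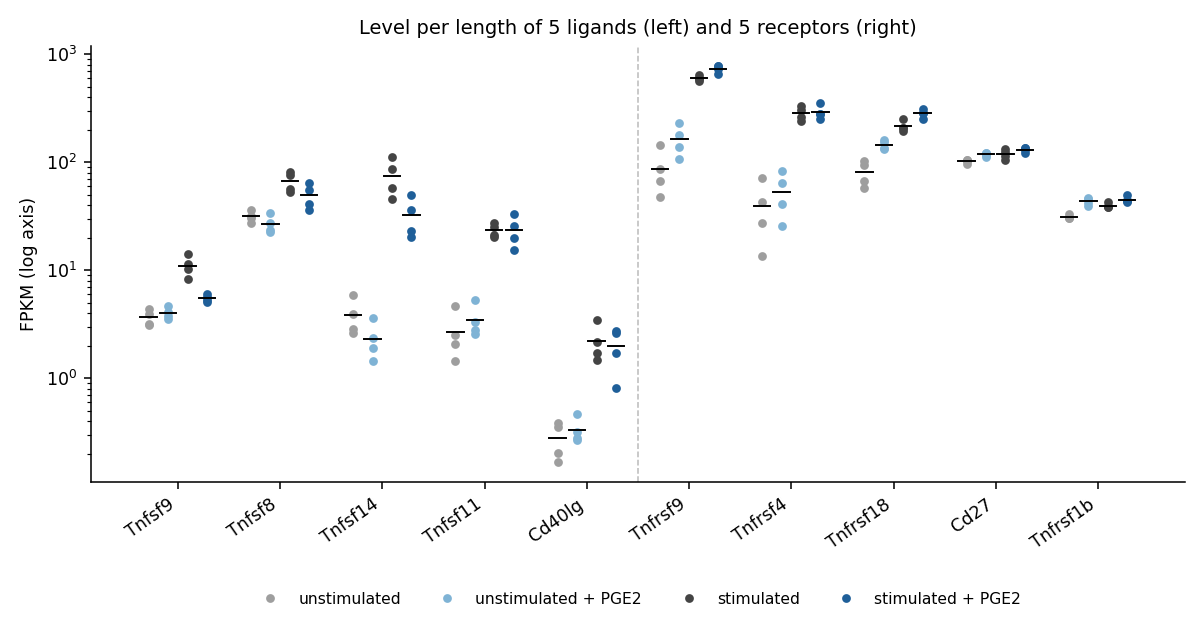
Levels of the 10 genes per length in FPKM on a log axis, with 1 point per sample, horizontal lines at the group means and ligands to the left of the dashed line. Tnfrsf9 stands highest in both stimulated groups (599 and 735 FPKM) and Cd40lg lowest in all 4 groups.

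The response to beads without PGE2 shows which members changed with anti-CD3 and anti-CD28 together, whose parts these groups do not separate. All 10 rose at an adjusted p below 0.05, against 66.5% of all genes tested in either direction and 31.7% upwards (edgeR quasi-likelihood test, 4 against 4 samples, Benjamini-Hochberg adjustment over 14205 genes). Of these, 8 also reached a fold change of 2 and are called DEGs, against 11.5% of all genes upwards. In 9 of the 10 every stimulated sample was above every unstimulated one, against 29.8% of all genes. The median log2 fold change was 2.93 over the ligands and 1.40 over the receptors, beside -0.031 over all genes.

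Among the ligands, Tnfsf14, which encodes LIGHT, a ligand of HVEM and of the lymphotoxin beta receptor, had 5.01, 5.54, 7.72 and 11.4 CPM in unstimulated replicates 1 to 4 and 215, 165, 112 and 86.8 CPM in stimulated replicates 1 to 4. Every stimulated sample lay far above every unstimulated one, and the gene rose 19.1-fold (log2 fold change 4.25, SE 0.310, adjusted p = 1.52e-07). Tnfsf11, whose product RANKL binds RANK on dendritic cells and osteoclast precursors, went up from a mean of 6.21 ± 3.20 to 54.4 ± 7.74 CPM (3.09 on the log2 scale, SE 0.263). Cd40lg, known mainly from helper CD4+ T cells, was at 0.364 ± 0.144 CPM in unstimulated and 2.88 ± 1.17 CPM in stimulated cells. Its log2 fold change was 2.93 (SE 0.347), on 5 to 18 counts without beads and 47 to 124 with them. Tnfsf9 and Tnfsf8 rose by less, with log2 fold changes of 1.57 and 1.07, and did not overlap between the groups either.

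Among the receptors, Tnfrsf9 had 133, 190.2, 250.3 and 403 CPM in unstimulated and 1830.5, 1697, 1671 and 1581 CPM in stimulated replicates 1 to 4. The unstimulated samples thus differed among themselves by more than the stimulated ones, relative to their level, and all lay below them (log2 fold change 2.78, SE 0.266, adjusted p = 1.39e-06). Tnfrsf4 behaved alike, with 19.2, 38.7, 63.0 and 101 CPM in unstimulated and 346, 371, 469 and 429.7 CPM in stimulated replicates (log2 fold change 2.84, SE 0.373). Tnfrsf18 rose 2.63-fold and Tnfrsf1b 1.26-fold without overlap.

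Cd27, which naive and memory T cells already carry, had the smallest rise (log2 fold change 0.21, SE 0.0814, adjusted p = 0.0332), with overlapping samples of 232 to 259.8 and 254 to 325 CPM. This call was lost without unstimulated replicate 1 or 4 or stimulated replicate 1 or 2 (adjusted p = 0.0509 to 0.0701), without the 4 samples numbered 3 (adjusted p = 0.0515), under upper-quartile factors (adjusted p = 0.143) and without the filter on low counts (adjusted p = 0.0645).

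With PGE2 present, beads raised 8 of the 10 members, against 64.2% of all genes tested in either direction and 32.5% upwards, and 5 of them were DEGs, against 12.7% upwards. The groups did not overlap for these 8, against 28.1% of all genes upwards. The order was similar, with log2 fold changes of 3.81 for Tnfsf14, 2.78 for Tnfsf11, 2.58 for Cd40lg, 2.48 for Tnfrsf4 and 2.20 for Tnfrsf9. Tnfrsf18 (0.99), Tnfsf8 (0.92) and Tnfsf9 (0.48) rose by less than 2-fold. Cd27 (0.17, SE 0.0681, adjusted p = 0.0515) and Tnfrsf1b (0.09, SE 0.0808, adjusted p = 0.334) did not pass. Cd27 passed with DESeq2 (adjusted p = 0.0360) and in 1 fit of all 16 samples (adjusted p = 0.0468).

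**Figure D2:**
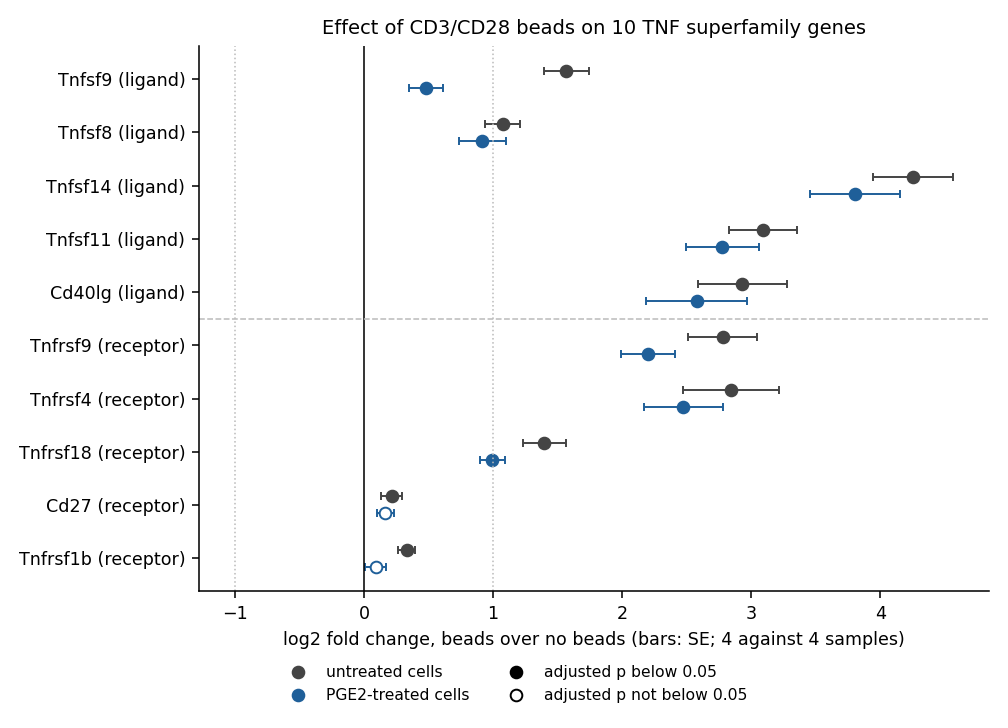
Log2 fold change of beads over no beads for each gene in untreated (grey) and PGE2-treated (blue) cells, with bars for the SE, filled points for an adjusted p below 0.05 and dotted lines at a 2-fold change. All 10 points of untreated cells are filled, and those of Cd27 and Tnfrsf1b are open in PGE2-treated cells.

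The response to PGE2 without beads was called for receptor genes in the main fit, and for ligand genes as well in a fit by replicate number given below. In the main fit of unstimulated cells, 4 of the 10 members passed, all of them receptors and all higher with PGE2: Tnfrsf18, Tnfrsf9, Tnfrsf1b and Cd27. Of all genes tested, 28.4% passed and 12.9% passed upwards. None of the 4 reached a 2-fold change, as 1.45% of all genes did upwards. The groups did not overlap for Tnfrsf18, Tnfrsf1b and Cd27, 3 of the 10 members, against 29.6% of all genes. The median log2 fold change was 0.48 over the receptors and 0.14 over the ligands, beside -0.0010 over all genes.

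Tnfrsf18 had 90.3, 107, 152 and 161 CPM in untreated and 207, 221, 263 and 254 CPM in PGE2-treated replicates 1 to 4. The lowest treated sample was above the highest untreated one, and the gene rose 1.81-fold (log2 fold change 0.86, SE 0.167, adjusted p = 0.00273). Gm16008, an antisense gene that covers 27.2% of the exon bases of Tnfrsf18, had 2.04 ± 0.921 and 3.15 ± 0.0826 CPM in these groups, against 128 ± 34.4 and 236 ± 26.6 CPM for Tnfrsf18 itself.

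Tnfrsf1b, the TNF receptor that T cells raise on activation, had 119, 121, 126 and 130.1 CPM in untreated and 186, 159.7, 171 and 187 CPM in PGE2-treated cells. These groups lay apart with a narrow spread on the untreated side (log2 fold change 0.48, SE 0.0661, adjusted p = 0.000310). Cd27 rose by a smaller amount, from 248 ± 12.3 to 294 ± 17.2 CPM without overlap (log2 fold change 0.22, SE 0.0611, adjusted p = 0.0197). The call on Cd27 was lost without unstimulated replicate 4 or PGE2-treated replicate 2 or 3 (adjusted p = 0.0523 to 0.0621) and without the 4 samples numbered 3 (adjusted p = 0.0602).

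Tnfrsf9 had 298, 403, 519 and 671 CPM with PGE2, against 133, 190.2, 250.3 and 403 CPM without it, so that the groups overlapped although the treated sample was the higher one at each replicate number. The ratio at a shared number was 1.66 to 2.24. Its adjusted p of 0.0498 (log2 fold change 0.92, SE 0.318) stood at the threshold and was lost with DESeq2 (adjusted p = 0.0818), with upper-quartile factors, with limma on FPKM at either pseudocount (adjusted p = 0.0558 and 0.0567), without any 1 of 6 samples (all but unstimulated replicate 4 and PGE2-treated replicate 1, adjusted p = 0.0636 to 0.124) and without the 4 samples numbered 3 (adjusted p = 0.178).

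Samples that shared a number deviated together, and a fit with the number as a block gave 8 members past the threshold in unstimulated cells, against 47.8% of all genes, 23.6% upwards and 24.2% downwards. All 5 receptors were higher in that fit, Tnfrsf9 at a log2 fold change of 0.98 (SE 0.0563, adjusted p = 6.35e-10) and Tnfrsf4 at 0.53 (SE 0.0706, adjusted p = 9.67e-06). Of the ligands, Tnfsf14 (log2 fold change -0.71, adjusted p = 1.84e-05) and Tnfsf8 (-0.23, adjusted p = 0.000193) were lower and Tnfsf11 (0.43, adjusted p = 0.00236) was higher. Without the block, Tnfsf14 did not pass (adjusted p = 0.110), though it did without the PGE2-treated replicate 4 (adjusted p = 0.0247) or without the filter on low counts (adjusted p = 0.0416), and nor did Tnfsf8 (adjusted p = 0.174), which passed without the PGE2-treated replicate 1 (adjusted p = 0.0186). Tnfsf9 (0.14, SE 0.154) and Cd40lg (0.25, SE 0.355) did not pass in either fit.

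**Figure D3:**
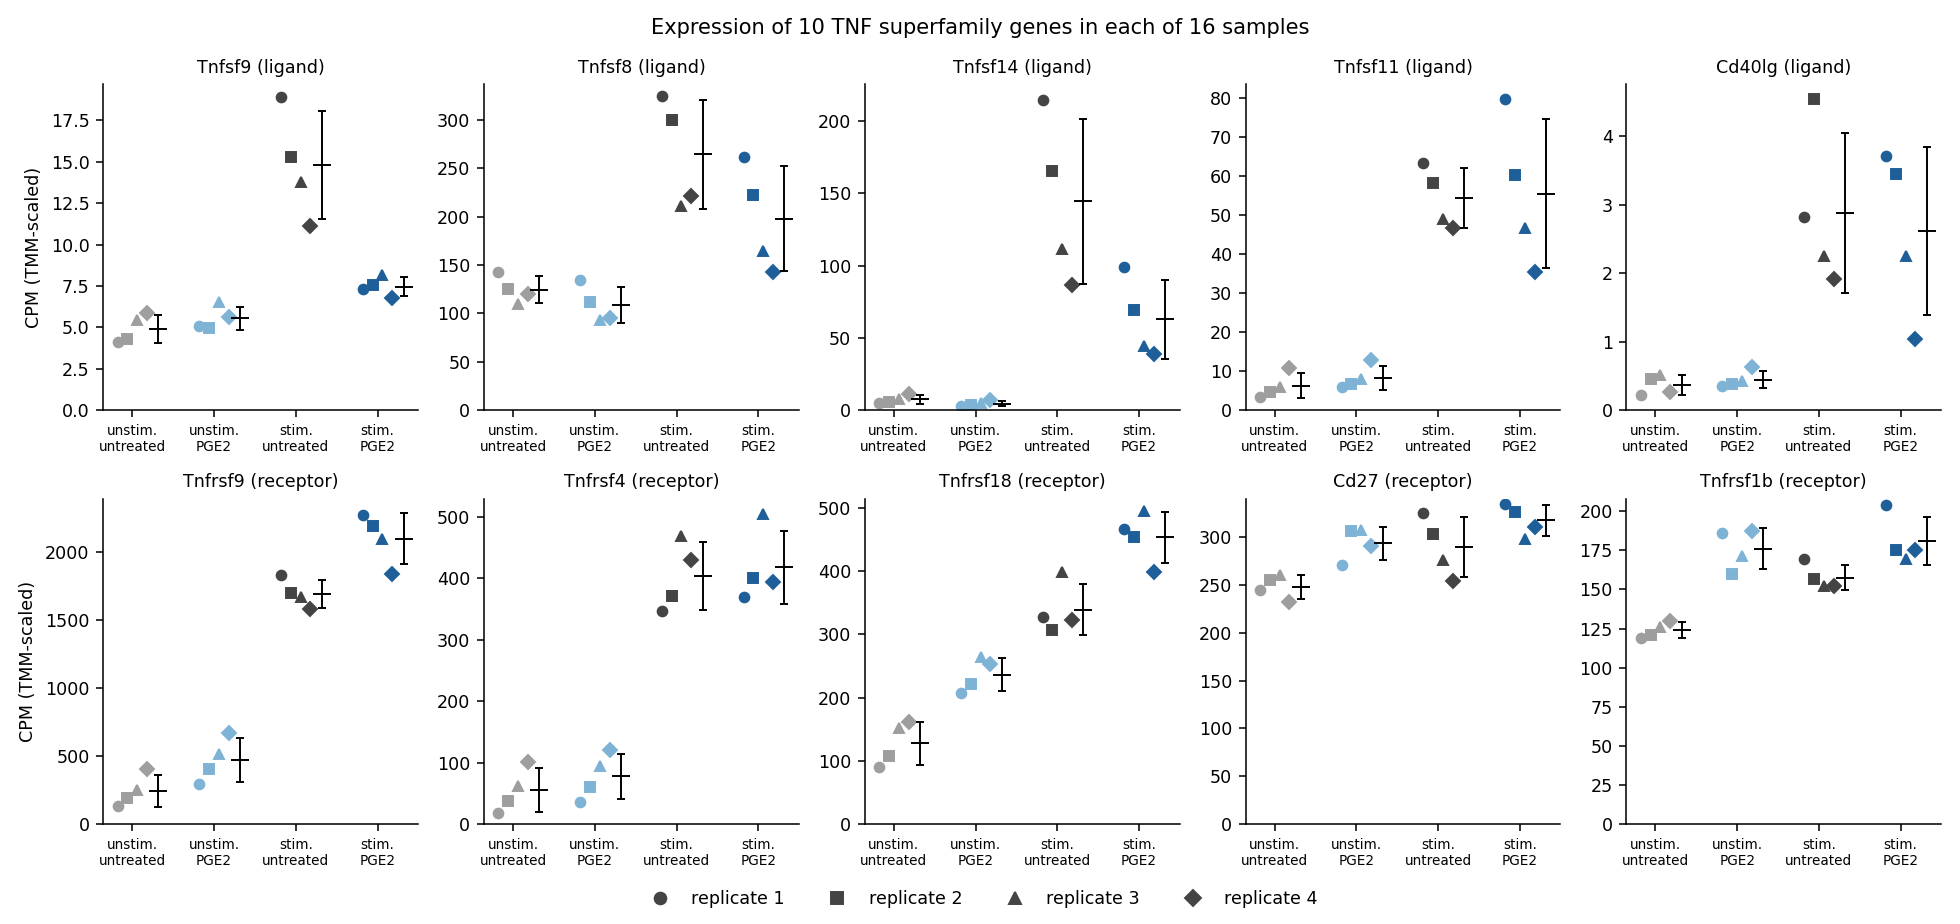
CPM of each gene in each of the 16 samples, with a symbol per replicate number, a bar at the mean with its SD and all axes starting at 0. Samples of the same number keep similar places in several panels, and Tnfsf9 with PGE2 after stimulation (6.75 to 8.16 CPM) lies below the stimulated untreated samples (11.1 to 18.9 CPM).

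The response to PGE2 with beads was called in the main fit for 2 ligand genes, which fell, and 2 receptor genes, which rose. In stimulated cells, 4 of the 10 members passed, against 9.84% of all genes tested: Tnfsf9 and Tnfsf14 fell (3.8% of all genes passed downwards), and Tnfrsf9 and Tnfrsf18 rose (6.04% upwards). Tnfsf14 alone was a DEG, against 0.546% of all genes downwards. The groups did not overlap for 3 members (Tnfsf9, Tnfrsf9 and Tnfrsf1b), against 17.8% of all genes. The median log2 fold change was -0.42 over the ligands and 0.20 over the receptors, beside -0.0061 over all genes.

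Tnfsf9, the ligand of 4-1BB, had 18.9, 15.3, 13.8 and 11.1 CPM in untreated and 7.34, 7.57, 8.16 and 6.75 CPM in PGE2-treated stimulated cells. The lowest untreated sample was above every treated one (log2 fold change -0.99, SE 0.142, adjusted p = 0.00264), and the call held in all 8 fits that left out 1 sample. These values rest on 162 to 703 counts. Gm11110, a gene on the opposite strand, shares 14.9% of the exon bases of Tnfsf9. It had 6.95 ± 0.420 CPM without and 7.12 ± 1.87 CPM with PGE2 (log2 fold change 0.04, SE 0.191, adjusted p = 0.923), and since the use of strand in counting is not given in the sources used here, reads of the shared bases cannot be told apart.

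Tnfsf14 had 215, 165, 112 and 86.8 CPM untreated and 98.8, 69.3, 44.5 and 38.8 CPM with PGE2. The groups overlapped, but at each replicate number the treated sample was the lower one, at 0.399 to 0.460 of the untreated level. It fell by 1.21 on the log2 scale (SE 0.313, adjusted p = 0.0387), a change that was no longer called without any 1 of 6 samples (all but stimulated replicate 4 and PGE2-treated replicate 1, adjusted p = 0.0603 to 0.113), with limma on FPKM (adjusted p = 0.0605 and 0.0615) or without the 4 samples numbered 3 (adjusted p = 0.166). With the replicate block it passed at an adjusted p of 1.18e-07.

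Tnfrsf9 had 2270.2, 2193, 2094 and 1843 CPM with PGE2, each above the 1581 to 1830.5 CPM of the untreated samples (log2 fold change 0.30, SE 0.0696, adjusted p = 0.0240). This call was lost without any 1 of 6 samples (all but stimulated replicate 1 and PGE2-treated replicate 4, adjusted p = 0.0506 to 0.0756), in 1 fit of all 16 samples (adjusted p = 0.455) and without the 4 samples numbered 3 (adjusted p = 0.159). Tnfrsf18 went from 339 ± 40.7 up to 453 ± 40.6 CPM, with 398 CPM in the lowest treated and 399 CPM in the highest untreated sample (log2 fold change 0.41, SE 0.102, adjusted p = 0.0332). It lost its call without any 1 of 5 samples (all but stimulated replicate 3 and PGE2-treated replicates 1 and 4, adjusted p = 0.0640 to 0.104) and in the fit of all 16 samples (adjusted p = 0.0723).

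The replicate block raised the count in stimulated cells to 7 members, against 39.8% of all genes, 19.1% upwards and 20.7% downwards. It added Tnfsf8 (log2 fold change -0.44, SE 0.0565, adjusted p = 0.000209), Tnfrsf1b (0.19, SE 0.0415, adjusted p = 0.00398) and Cd27 (0.13, SE 0.0472, adjusted p = 0.0467), so that 3 ligands were lower and 4 receptors higher. Tnfrsf1b also passed with DESeq2 and upper-quartile factors (adjusted p = 0.0432 and 0.0425), against 0.0805 in the fit without the block. Tnfsf11 (log2 fold change 0.02, SE 0.196), Cd40lg (-0.15, SE 0.369) and Tnfrsf4 (0.04, SE 0.136) did not pass in either fit.

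**Figure D4:**
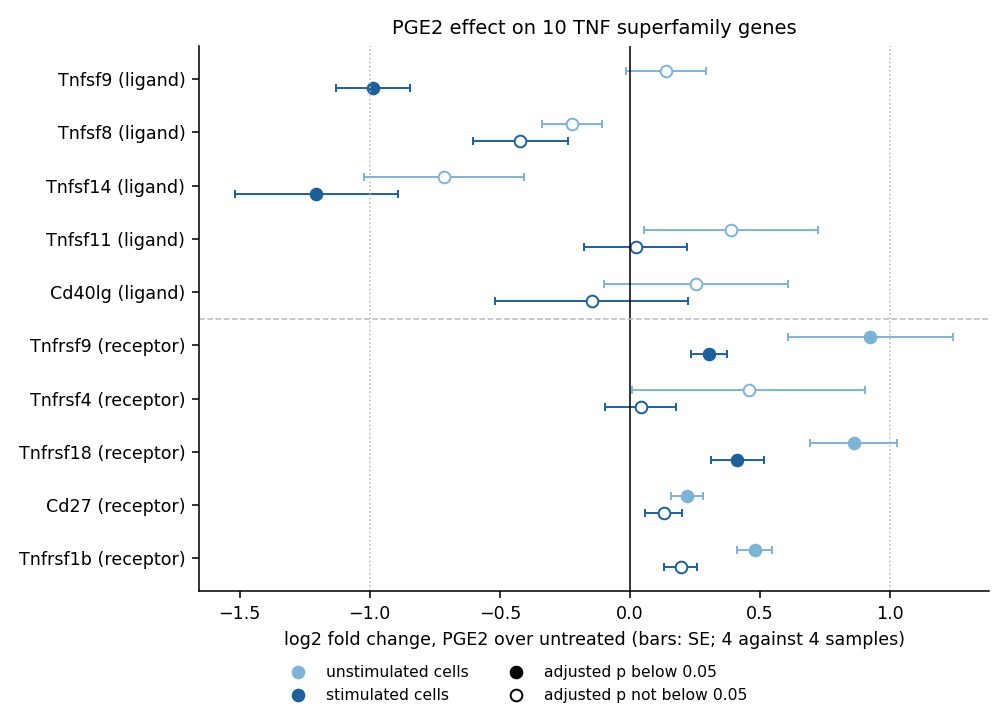
Log2 fold change of PGE2 over untreated for each gene in unstimulated (light blue) and stimulated (dark blue) cells, with bars for the SE, filled points for an adjusted p below 0.05 without the replicate block and dotted lines at a 2-fold change. The receptors below the dashed line lie to the right of 0 in both states, and Tnfsf9 lies at 0.14 in unstimulated and -0.99 in stimulated cells.

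Each group serves in a PGE2 comparison and in a bead comparison, so these share samples. Whether the response to PGE2 differed with and without beads was tested as an interaction over all 16 samples. Tnfsf9 was the only member that passed, against 0.749% of all genes tested and 0.232% downwards, with an interaction of -1.11 on the log2 scale (SE 0.211, adjusted p = 0.0185). Without PGE2 the beads raised Tnfsf9 2.97-fold, and with PGE2 1.40-fold, from 5.54 ± 0.710 to 7.46 ± 0.583 CPM. The interaction did not pass without unstimulated replicate 2, PGE2-treated unstimulated replicate 3, stimulated replicate 2 or PGE2-treated stimulated replicate 2 (adjusted p = 0.0573, 0.0529, 0.0521 and 0.0502), nor without the 4 samples numbered 3 (adjusted p = 0.210). Gm11110 had an interaction of -0.18 (SE 0.265, adjusted p = 0.939). For the other 9 members the estimates lay between -0.60 for Tnfrsf9 (SE 0.357, adjusted p = 0.698) and -0.08 for Cd27 (SE 0.0911, adjusted p = 0.918).

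The levels of 4-1BB and its ligand were set against each other per length. The FPKM of Tnfrsf9 was 22.7 ± 7.26 times that of Tnfsf9 in unstimulated cells, 40.2 ± 11.9 times with PGE2, 55.8 ± 9.13 times after stimulation and 133.7 ± 10.7 times after stimulation with PGE2. The last group ranged from 122 to 147 and lay above the highest value of any other group, 67.5. Tnfrsf9 and Tnfsf9 each lay apart between the stimulated groups with and without PGE2, so the separation of their ratio there is no separate result. This ratio holds the counts of Tnfsf9 with the limit given above.

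**Figure D5:**
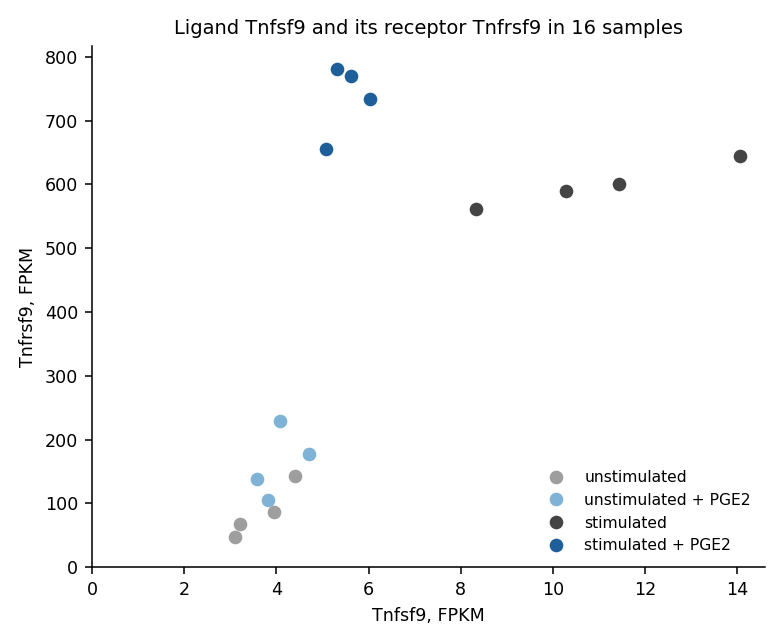
FPKM of Tnfrsf9 against FPKM of Tnfsf9, with 1 point per sample and a colour per group. The stimulated samples with PGE2 have more Tnfrsf9 (655 to 780 FPKM) and less Tnfsf9 (5.07 to 6.04 FPKM) than the stimulated untreated samples (562 to 644 and 8.32 to 14.1 FPKM).

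The partners of the members within the family were measured in the same samples. Tnf, which together with the lymphotoxin encoded by Lta binds TNFR2, fell with PGE2 from 23.9 ± 3.81 to 10.5 ± 2.60 CPM in unstimulated and from 248 ± 60.0 to 99.4 ± 41.4 CPM in stimulated cells (log2 fold changes -1.21 and -1.32, adjusted p = 0.000357 and 0.0142). Lta fell from 46.0 ± 5.92 to 17.98 ± 2.93 and from 453 ± 58.8 to 144 ± 72.5 CPM (log2 fold changes -1.38 and -1.66). Cd70 had 1.22 ± 0.124 CPM in stimulated cells and fell to 0.401 ± 0.207 CPM (log2 fold change -1.58, adjusted p = 0.0175) on 5 to 44 counts.

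Other partners were low or had small changes. Tnfsf4, the OX40 ligand, had 5.04 to 7.77 CPM in the group means, with log2 fold changes under PGE2 of 0.37 (SE 0.417) in unstimulated and 0.63 (SE 0.399) in stimulated cells. It did not pass in these fits and did with the replicate block (0.35 and 0.63, adjusted p = 0.0130 and 0.00196). Tnfsf18, the GITR ligand, had 1 count in 1 of the 16 samples. Tnfrsf14, the HVEM gene, had 16.5 to 26.0 CPM and log2 fold changes under PGE2 of 0.28 (SE 0.126) and 0.23 (SE 0.105), neither of which passed, and with the block both did (0.27 and 0.23, adjusted p = 0.00221 and 0.0294). Ltbr, the other receptor of LIGHT, had at most 3 counts in any sample. Tnfrsf8, the CD30 gene, fell in unstimulated cells from 2.17 ± 0.780 to 0.889 ± 0.429 CPM (log2 fold change -1.30, adjusted p = 0.0167), and Cd40 from 1.45 ± 0.437 to 0.571 ± 0.401 CPM (-1.36, adjusted p = 0.0336). These 2 calls rest on low counts per sample. Tnfrsf8 had 35 to 112 without and 12 to 56 with PGE2, and Cd40 had 19 to 63 and 8 to 39. In stimulated cells Tnfrsf8 passed with the block (-0.56, adjusted p = 0.0245).

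Of 13 other ligand genes, 8 were tested for PGE2 in stimulated cells, where 4 fell and 1 rose, and 7 in unstimulated cells, where 3 fell and 1 rose, beside 9.84% and 28.4% of all genes in either direction. With the block, 5 were lower and 2 higher in stimulated cells and 3 lower and 2 higher in unstimulated cells, beside 39.8% and 47.8% of all genes in either direction. The genes added by the block were Ltb (-0.49, adjusted p = 8.64e-05) in stimulated cells and Tnfsf4 in both states. The gene that rose without the block was Fasl, the death ligand of cytotoxic T cells, from 8.41 ± 2.59 to 23.8 ± 3.45 CPM in stimulated and from 3.90 ± 1.19 to 14.8 ± 2.19 CPM in unstimulated cells (log2 fold changes 1.49 and 1.88). Of 23 other receptor genes, 16 were tested in stimulated cells, with 2 higher and 2 lower, beside 9.84% of all genes in either direction. In unstimulated cells 15 were tested, with 2 higher and 5 lower, beside 28.4% of all genes. The block gave 4 higher and 5 lower in stimulated and 4 higher and 6 lower in unstimulated cells, beside 39.8% and 47.8% of all genes. The median log2 fold change over these other receptors was -0.24 in stimulated and -0.16 in unstimulated cells. Over the 5 member receptors it was 0.20 and 0.48, so the rise of the member receptors was not shared by this list. For the other ligands the medians were -0.63 and -0.086, beside -0.0061 and -0.0010 over all genes. Tnfrsf23, which encodes a decoy receptor, and Tnfrsf26 rose in both states (log2 fold changes 1.72 and 1.03 in stimulated, 0.92 and 0.45 in unstimulated cells). Tnfrsf21, which encodes death receptor DR6, and Tnfrsf13c, the BAFF receptor gene, fell in unstimulated cells (-1.71 and -1.23), and with the block they passed in stimulated cells as well (-0.56 and -0.59, adjusted p = 0.00341 and 0.0269).

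Of 23 genes of TRAF and NF-kB signalling, all were tested. PGE2 raised 6 and lowered 1 in unstimulated cells and raised 2 in stimulated cells, none of them 2-fold, with list medians of 0.070 and -0.017, and the 7 of 23 in unstimulated cells stand beside 28.4% of all genes. With the block, 11 were higher and 5 lower in unstimulated cells, beside 47.8% of all genes, and 3 higher and 4 lower in stimulated cells, beside 39.8%. The lower ones in stimulated cells were Cflar (-0.39, adjusted p = 4.73e-05), an inhibitor of death receptor signalling, the NF-kB subunit genes Rel (-0.49, adjusted p = 0.000114) and Rela (-0.13, adjusted p = 0.0362), and Siva1 (-0.21, adjusted p = 0.0145). Beads raised 14 and lowered 4 of them both without and with PGE2, with list medians of 0.29 in each, beside 66.5% and 64.2% of all genes that passed in either direction. The largest changes without PGE2 were those of Rel, Nfkb2 and Traf4 (log2 fold changes 2.37, 1.97 and 1.91), and with PGE2 those of Traf4, Rel and Nfkb2 (1.96, 1.79 and 1.64). In the interaction, none of the 47 tested genes of the 3 lists passed in the edgeR fit without the block, and 9 had an unadjusted p below 0.05.

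Beads moved the other family members in both directions, where 66.5% of all genes tested passed in either direction without PGE2 and 64.2% with it. Of 8 other ligands tested without PGE2, 5 rose and 1 fell, led by Tnf (log2 fold change 3.36), Lta (3.29) and Tnfsf13b (-1.64). Of 7 tested with PGE2, 3 rose and 1 fell, led by the same genes at 3.28, 3.05 and -1.43. Of 15 other receptors tested without PGE2, 5 rose and 6 fell, led by Tnfrsf21 (2.84), Tnfrsf26 (-2.41) and Tnfrsf23 (-2.28). Of 15 tested with PGE2, 5 rose and 5 fell, led by Tnfrsf21 (4.10), Tnfrsf26 (-1.79) and Tnfrsf12a (1.503). The list medians were 0.75 and 0.23 for the ligands and 0.012 and -0.010 for the receptors, beside 2.17 and 1.60 over the 10 members.

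Over the 16 samples, the members' log2 CPM correlated with each other at Pearson's r of 0.243 to 0.979, highest for Tnfrsf9 with Tnfrsf4 and lowest for Tnfsf8 with Tnfrsf1b. These values, as those that follow, describe 16 points that share the response to beads, the replicate numbers and the depth of each library. Among 12250 genes, those most like Tnfsf14 were Xcl1 and Fosl1 (r = 0.997 and 0.996), those most like Tnfsf11 were Zeb2 and Nr4a3 (0.997 and 0.996), and those most like Tnfrsf9 were Dusp4 and Serpinb6b (0.993 and 0.988). Tnfrsf4 was nearest to Slc35d3 and Arhgap21 (0.993 and 0.992), Tnfrsf18 to Tigit and Dennd5a (0.984 and 0.980), Tnfsf8 to Ascc3 and Neto2 (0.990 and 0.988) and Cd40lg to Ercc1 and Strn4 (0.984 and 0.983). Tnfsf9 (Ksr1 and Epcam, 0.959 and 0.952), Tnfrsf1b (D16Ertd472e and Kdm2b, 0.958 and 0.950) and Cd27 (Chmp4b and Parp10, 0.921 and 0.917) had less close neighbours. By Spearman's rho, 5 of these 20 genes were again among the nearest 2.

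Some markers of other cells moved with the groups as well. The B cell marker Cd79b had 13.04 ± 2.24 CPM in unstimulated, 9.40 ± 1.42 in unstimulated with PGE2, 5.38 ± 1.14 in stimulated and 4.05 ± 0.749 CPM in stimulated cells with PGE2. Of the 5 B cell markers, 2 were tested for PGE2, and they differed in direction. With the replicate block, Cd79b was lower in unstimulated and stimulated cells (log2 fold changes -0.49 and -0.42, adjusted p = 0.000125 and 0.0212). Cd79a had 0.27 and 0.40 and did not pass (adjusted p = 0.206 and 0.176). The sum of 8 myeloid and dendritic cell markers was 20.5 to 39.5, 24.6 to 51.6, 34.6 to 56.3 and 36.4 to 61.3 CPM in the same order, nearly all from H2-Ab1 and Cd74, while Lyz2, Csf1r and Cd14 had at most 4 counts in any sample. The sum of 4 markers of CD4+ and regulatory T cells was 42.4 to 62.6 CPM over all samples. Its highest gene was Trat1 at 25.3 CPM in unstimulated, 40.4 in stimulated and 30.4 CPM in stimulated cells with PGE2. With PGE2 alone it was Zbtb7b at 28.0 CPM. In each group 1 of the 4 genes had a mean below 1 CPM. Trat1 fell with PGE2 in unstimulated cells (log2 fold change -1.04 with the block, adjusted p = 1.36e-09), so this sum is no measure of the share of such cells. In these bulk samples, a change in the number of cells that express a gene cannot be told apart from a change in RNA per cell, and the part of these cells in the results was not tested.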

How the data were processed

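RNA-seq counts of 16 samples were analysed. According to the submitters' processing notes and the methods, the authors aligned poly(A)-selected paired-end reads to GRCm38 with HISAT2 2.0.5, counted them per gene with featureCounts 1.5.0-p3 and deposited whole counts without normalization. The deposited FPKM values divide these counts by gene length and by a total; within each sample they matched the count by length and total times 1 factor of 0.878 to 1.11. Annotation release and strand setting are not given in the sources used here. The authors tested with DESeq2 1.20.0.

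For the tests on counts, edgeR 4.0.16 under R 4.3.3 was used: genes were filtered with filterByExpr at a minimum count of 10, libraries were scaled with TMM, and glmQLFit and glmQLFTest gave two-sided p-values with Benjamini-Hochberg adjustment over all genes tested. Pairwise fits held the 8 samples compared, the interaction all 16. A gene past the adjusted p of 0.05 that also changed 2-fold or more was called a DEG. CPM were TMM-scaled; log2 CPM used a prior count of 2. The biological coefficient of variation was 0.115 to 0.139, so that replicate spread limits precision more than counting error except for Cd40lg, Cd70 and genes near 0. The fits were tested on simulated counts of independent samples. These held no effect of the replicate number, so they cannot show how the fits behave where same-numbered samples deviate together. The alternatives were DESeq2 1.42.0, other factors and filters, limma 3.58.1 on FPKM (log2 after adding 1 or 0.1, restricted to mean values of 1 or more), the replicate block, a common fit over the 16 samples and omission of each sample; leaving out the 4 samples numbered 3 was chosen after seeing the data.

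Same-numbered samples deviated together from their group means over genes (r = 0.191 to 0.425 for PGE2 in stimulated cells, 0.137 to 0.443 in unstimulated cells and 0.112 to 0.360 for stimulation without PGE2), each above 0.1, so the blocked values of these comparisons are printed where they change the call of a member or partner, and for the other lists as counts with examples. What a number shares is not given in the labels. The members and the gene and marker lists were chosen with earlier results of these data known, so counts over them are descriptions. Named were all members, family and signalling genes that were DEGs under PGE2, for each response to beads up to 3 of each list that changed most among those DEGs whose mean reached 1 CPM, partners of members, and the 2 genes most like each member among those of at least 1 CPM. Gm11110 and Gm16008 were named after their values were seen. The summed level of the B cell list is not reported here. Exons came from GENCODE M21, promoters from RefSeq.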

Additional observations from a re-analysis of the deposited data

Results flagged for a closer look

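Tnfrsf1b had 203.8 CPM in the stimulated PGE2-treated replicate 1, against 175 CPM in the nearest of the other 3 samples, which put its gap to them at 0.832 of the range of the group and above the critical value for 4 samples. Of 40 groups of 4 samples checked, 1 exceeded this value, and chance gives about 1 in 20. The PGE2 effect on Tnfrsf1b in stimulated cells did not pass in any of the 8 fits that left out 1 sample (adjusted p = 0.103 to 0.194).

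The PGE2 effect on Tnfsf9 differed between stimulated and unstimulated cells by -1.11 on the log2 scale in the interaction test, with 4 of 4 stimulated samples lower at each replicate number and 1 of 4 unstimulated samples lower.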

How the results depend on the processing

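Of the 50 results on members (10 genes in 5 comparisons), 35 kept their side of the threshold under every alternative, and 15 changed it under at least 1. Over 968 alternative values, 897 had the same call, 51 were no longer past the threshold, 20 were newly past it and 0 reversed a call. For PGE2 in stimulated cells, 4 members passed, 7 with the replicate block, 2 in 1 fit of all 16 samples, 2 without the 4 samples numbered 3 (6 with the block as well) and 1 to 3 with 1 sample left out. For PGE2 in unstimulated cells, 4 passed, 8 with the block, 2 without the samples numbered 3 (8 with the block as well) and 2 to 5 with 1 sample left out. For stimulation, 10 passed without PGE2 (9 to 10 with 1 sample left out) and 8 with PGE2 (8 to 8). In the interaction, 1 passed, 0 without the samples numbered 3 with or without the block, and 0 to 1 with 1 sample left out. For Tnfsf9, the interaction then had an adjusted p of 0.210, or 0.130 with the block, and its estimate was -1.22 to -0.98 over all of its alternatives.

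The same settings moved the counts over all genes. PGE2 in stimulated cells gave 1370 genes, 2221 with DESeq2, 2161 in 1 fit of all 16 samples, 5544 with the block, 314 without the samples numbered 3 (3844 with the block) and 630 to 1854 with 1 sample left out. PGE2 in unstimulated cells gave 4122, and 6938 with the block. The interaction gave 113, 237 with DESeq2, 43 and 53 with limma on FPKM, 408 with the block, 44 to 217 with 1 sample left out and, with edgeR, 0 without the samples numbered 3, where 888 genes had an unadjusted p below 0.05 (25 passed with the block as well). Same-numbered samples had correlations of deviations of 0.205, 0.0437, 0.281 and 0.0914 at numbers 1 to 4 for stimulation with PGE2. Over all pairs of groups, as used in the interaction, they were 0.0437 to 0.443 with a median of 0.243, against a median of -0.082 for other numbers. Some thus lay below 0.1, unlike in the other comparisons. The block kept 8 members for stimulation with PGE2 and 1 in the interaction, Tnfsf9 at an adjusted p of 0.0105. The block also passed 5 of the 47 other family and signalling genes in the interaction: Tnfrsf21 (1.19, adjusted p = 0.0177), Traf1 (-0.40, 0.00463), Ltb (-0.39, 0.00832), Cflar (-0.45, 0.00905) and Rel (-0.61, 0.0307). Upper-quartile factors moved the median of all genes from 0.0022 to -0.125 for stimulation with PGE2 and from -0.031 to -0.128 for stimulation without it, and no called member changed direction with the scaling. Depth limits the low genes most: Cd40lg had 5 to 18 counts per unstimulated sample, and its PGE2 effects carry SEs of 0.355 and 0.369.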
